A study of Rattus norvegicus with 40 samples.

Results

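The cell cycle and DNA replication genes described here are 38 named genes: cyclins, cyclin-dependent kinases and their inhibitors, the MCM helicase subunits and other replication genes, and kinases and spindle-checkpoint genes of mitosis. The list was given by name, without a rule on measured values, but was drawn up with earlier results of these data known. Each gene was read on a single Affymetrix probe set, the one with the highest mean over all 40 arrays among the probe sets that carried only that gene's symbol. Such a probe set was found for 37 of the 38, and 36 passed the filter on low values, of 14217 genes with a probe set of their own in the series. Rrm2, a subunit of ribonucleotide reductase, has no value here because its only 2 probe sets are shared with another gene. Plk3, a stress-responsive polo-like kinase, was measured but not tested, since its mean log2 level of 5.59 lay under the filter at 6.48.

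A cell commits to division in G1, when D-type cyclins with Cdk4 and then cyclin E with Cdk2 release the E2F transcription factors, and inhibitors such as Cdkn1a and Cdkn1b hold these kinases back. E2F target genes then supply the replication machinery, and the B cyclins with Cdk1, the Aurora and polo-like kinases and the spindle checkpoint carry the cell through mitosis. Ventricular myocytes are known to leave the cell cycle around birth, while fibroblasts and other cells of a neonatal heart culture go on dividing, so in total RNA of such cultures these transcripts come from a mixture of cells.

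The samples were neonatal rat ventricular myocytes (NRVMs) in culture, exposed to coverslip hypoxia, in which a coverslip laid on the cells limits their oxygen and medium. One arm of the study was ischemia alone and the other ischemia+reperfusion, each labelled 0, 10, 30, 60 and 120 min. The resulting 10 groups held 4 arrays each, 2 duplicates from each of 2 cell preparations. An array is named here by its preparation and duplicate, so that array 2-1 is the first duplicate of preparation 2. The labels do not say what the minutes count, how long reperfusion lasted, how the 0 min groups were handled, or whether duplicates were separate cultures, so the p-values may in part measure technical spread.

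Levels are log2 of the quantile-normalized intensity plus 16, so a difference of 1 is a doubling, slightly understated for dim probe sets. They compare groups for one gene and not one gene with another. A called gene is one with a Benjamini-Hochberg adjusted p under 0.05 in limma, adjusted over all 18625 probe sets tested, with duplicates averaged so that n = 2 preparations per group. All comparisons with 0 min within an arm share the same 4 arrays at 0 min. Array 1-1 of ischemia 0 min stood apart: its correlation with the rest had a median of 0.872, where every other array had 0.960 to 0.979. A pair of 120 min arrays went against their labels by the heat-shock gene Hspa1a: ischemia array 2-2 was at 13.15, where the other ischemia arrays at 120 min were at 9.62 to 10.19, and ischemia+reperfusion array 2-1 was at 9.75, where the others were at 13.00 to 13.25. Calls are therefore given with and without these arrays where they differ. The muscle genes Nppa and Tnnt2 averaged 13.75 and 13.48 over the arrays, and 11 of 12 cardiomyocyte markers, 10 of 10 fibroblast, 6 of 8 endothelial, 4 of 4 smooth muscle and 11 of 11 macrophage and leukocyte markers passed the filter. The filter takes any probe set above the 40th percentile of mean level, so passing it does not by itself show a cell type. Outside the cardiomyocyte list, the means of markers that passed ran from 6.66 (Aif1) to 13.23 (Col1a2). In such bulk samples fewer cells of a type and less RNA per cell cannot be told apart.

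Of the 4 mitotic members called lower in ischemia+reperfusion, all with a promoter in RefSeq's rat table (build GRCr8), 3 are shown here, and Nek9, whose promoter, like the window of Aurka, held no match to the motifs searched, is not printed. The 250 bases before each start are shown because many G2 and mitosis genes are known to be controlled through CHR and CCAAT elements. All 3 lie on the minus strand and are written 5′ to 3′ in the direction of transcription, with matches to the searched motifs in capitals. Ccnb1 is at chr2:33655226-33655475, Ccnb2 at chr8:79981659-79981908 and Aurka at chr3:181560770-181561019.
Ccnb1: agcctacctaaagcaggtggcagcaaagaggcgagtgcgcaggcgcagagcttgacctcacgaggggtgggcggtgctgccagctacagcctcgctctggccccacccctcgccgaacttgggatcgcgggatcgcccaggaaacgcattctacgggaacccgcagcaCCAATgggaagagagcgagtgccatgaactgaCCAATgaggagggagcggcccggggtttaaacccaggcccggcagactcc
Ccnb2: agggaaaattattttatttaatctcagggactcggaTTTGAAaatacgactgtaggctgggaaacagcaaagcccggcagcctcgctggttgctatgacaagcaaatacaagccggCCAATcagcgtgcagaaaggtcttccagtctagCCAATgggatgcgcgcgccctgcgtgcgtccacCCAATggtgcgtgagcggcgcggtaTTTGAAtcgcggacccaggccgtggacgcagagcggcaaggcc
Aurka: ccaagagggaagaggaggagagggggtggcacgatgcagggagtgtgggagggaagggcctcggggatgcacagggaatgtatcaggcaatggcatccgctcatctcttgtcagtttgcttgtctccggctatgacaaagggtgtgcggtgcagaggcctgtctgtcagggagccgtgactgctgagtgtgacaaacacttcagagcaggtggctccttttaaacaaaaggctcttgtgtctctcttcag

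In Ccnb2 the capitals mark the CHR motif TTTGAA at -214 and -43 and CCAAT at -134, -101 and -68, each counted from the start to the first base of the match. Ccnb1 holds CCAAT at -82 and -50, and the Aurka window holds none of the letters searched. The search covered both strands of the whole 300-base promoters (250 bases before and 50 after the start) for CCAAT, the CHR motifs TTTGAA and TTCGAA, the E2F motifs TTTCCCGC and TTTGGCGC and the cAMP response element TGACGTCA, and no motif contains another. Of the 38 members 31 had an entry, and Ccna2, Aurkb, Ccnd1, Ccnd2, Mcm4, E2f1 and Rrm2 had none. CCAAT was found in 19 of the 31 (61.3%) and in 37.5% of all 33469 promoters. TTTGAA was found in 10 (32.3%, against 18.3% of all promoters): Mcm2, Ccnb2, Cdk1, Mki67, Top2a, Bub1b, Mad2l1, Plk1, Cdc20 and Birc5. TTCGAA was in 5 members (16.1%, against 1.69%), TTTCCCGC in 3 (9.68%, against 0.974%), TTTGGCGC in 3 (9.68%, against 0.493%) and TGACGTCA in 2 (6.45%, against 1.83%). The 3 members with TTTCCCGC were the helicase genes Mcm3, Mcm5 and Mcm7, and those with TTTGGCGC were Mcm5, Mcm6 and Tyms. A match is a description of letters and not a binding site, and 8 members with an entry held no match in this window.

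Over the whole list, change was seen at the longest times. After 120 min of ischemia 3 of the 36 members were called (8.33%), where 12.9% of all probe sets tested were called (6.45% higher and 6.48% lower): Cdkn1a rose, and Cdk2 and Tyms fell. In ischemia+reperfusion 4 members (11.1%) were called at 60 min, where the background was 4.69% (2.19% higher, 2.5% lower), and 6 (16.7%) at 120 min, where it was 7.17% (3.5% higher, 3.68% lower). At both times Cdkn1a was the only member called higher; Ccnb2, Aurka and Nek9 were called lower at both, and Ccnb1 and Cdk2 also at 120 min. The share of members called thus lay under the background in ischemia and above it in ischemia+reperfusion, and no test was made of either gap. The median change of the 36 was -0.05 after 120 min of ischemia and -0.12 after 120 min of ischemia+reperfusion, where the medians over all probe sets lay within 0.02 of 0, and 30 of the 36 were below 0 in the latter.

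These counts depended on scale and on single arrays. On the deposited scale, without normalization, the members called after 120 min of ischemia were 5, all lower (Cdk2, Mcm7, Tyms, Ccna2 and Ccnb1). After 60 and 120 min of ischemia+reperfusion 0 and 3 were then called, the 3 (Ccna2, Ccnb1 and Aurka) all lower. With each array centred on its median, 10 were called after 120 min of ischemia+reperfusion, all lower. In these settings the median change of all probe sets was itself below 0. On the deposited scale it was -0.22 and -0.12 after 120 min of ischemia and of ischemia+reperfusion, and with centring -0.09 in the latter. The lean to lower calls is therefore not read as a trait of the members, and the shares of all probe sets called in these settings are not given here. Without array 1-2 of ischemia+reperfusion 0 min 2 members were called at 60 min, and without its array 2-1, which was high in the B cyclins and Aurka, 2 were called at 120 min (Aurka and Nek9). Without its array 2-2 the counts were 8 and 12, and without array 2-1 of the 120 min group 10.

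**Figure D1:**
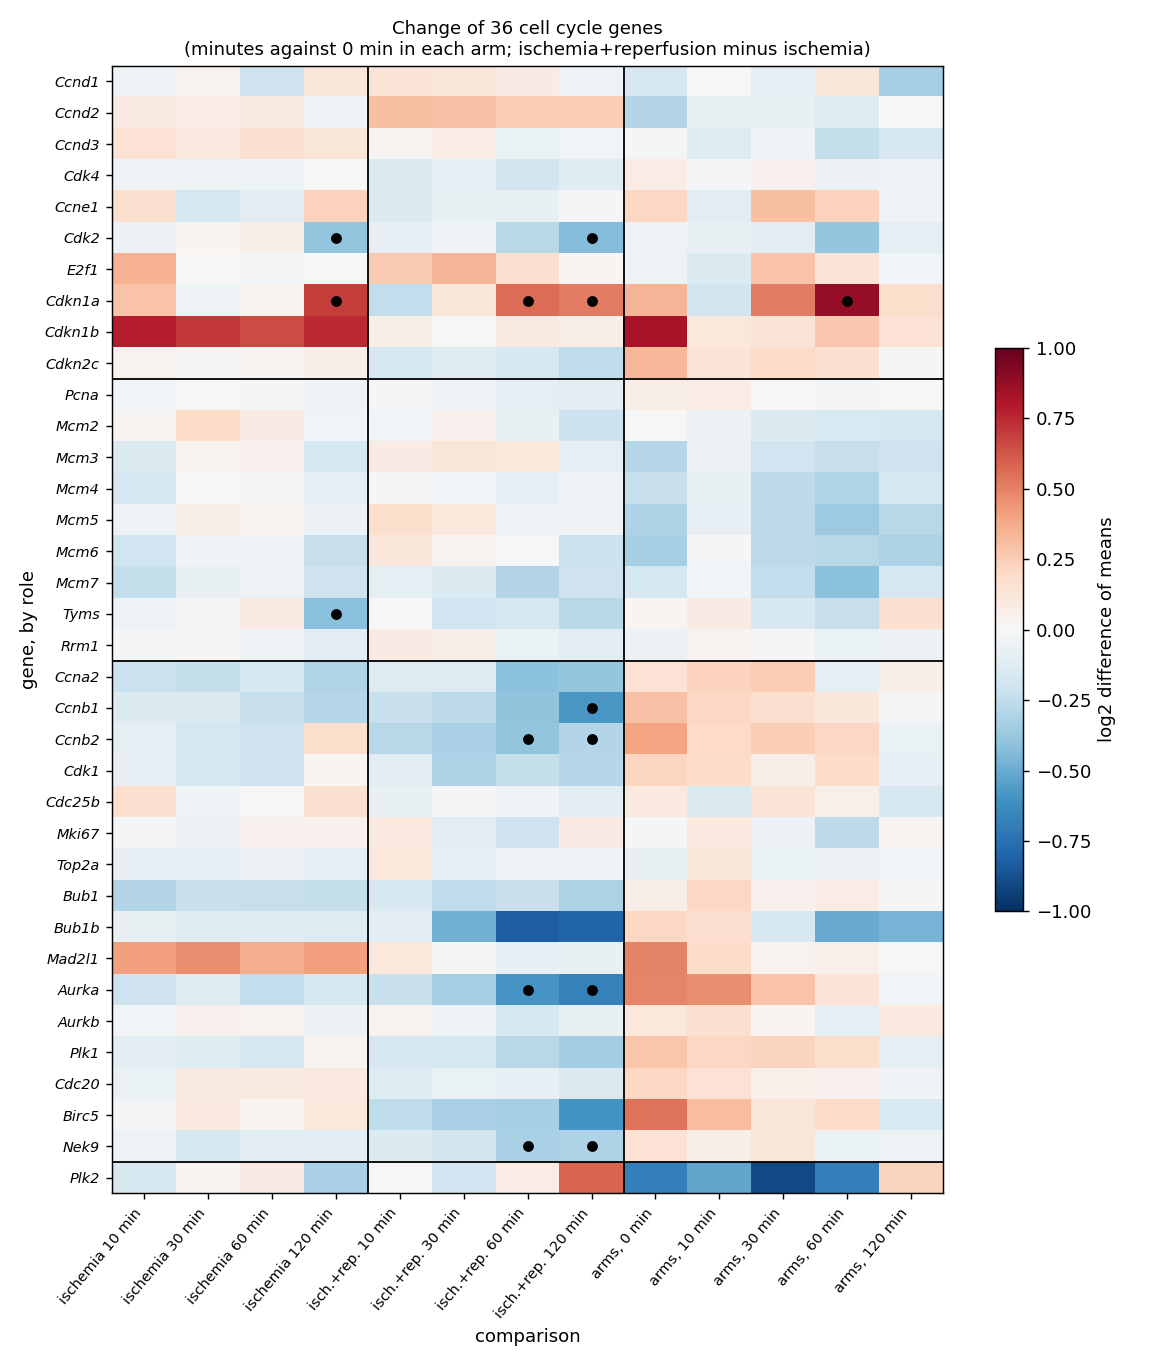
Log2 difference of each of the 36 tested members (one line per gene, grouped by role) in the 8 comparisons with 0 min and the 5 comparisons of the arms, on a colour scale from -1 to 1, with a dot where the gene was called. The dots gather at 60 and 120 min: Cdkn1a on the higher side, and Cdk2, Tyms, Ccnb1, Ccnb2, Aurka and Nek9 on the lower side.

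At the short times no member was called. In ischemia at 10, 30 and 60 min, 2, 3 and 2 of the 36 members had an unadjusted p under 0.05 in limma, where 1.98%, 0.0966% and 0.129% of all probe sets were called and 22%, 15.6% and 15.8% had an unadjusted p under 0.05. In ischemia+reperfusion at 10 and 30 min the unadjusted counts were 4 and 6, beside a called background of 0.0376% and 0.784% and an unadjusted background of 11.3% and 14.8%. The F test for any difference over the 5 times of an arm called Cdkn1a and Ccnb2 in ischemia (adjusted p = 0.041 and 0.045; background 4.57%) and Cdkn1a and Nek9 in ischemia+reperfusion (adjusted p = 0.032 and 0.041; background 3.61%). Without the preparation as a block, this test called 0 members in ischemia and 1, Cdkn1a, in ischemia+reperfusion.

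Among the G1 genes, Cdkn1a, the inhibitor that p53 and other stress pathways induce to stop cyclin-dependent kinases, was called in the most comparisons. Its levels at ischemia 0 min were 10.39, 10.48, 10.68 and 10.72, and at 120 min 11.22, 11.01, 11.00 and 11.80. Every array at 120 min was above every array at 0 min, and the highest value belonged to array 2-2, one of the pair out of place. Cdkn1a rose by 0.69 (SE 0.14, adjusted p = 0.014), and without the pair by 0.49 (adjusted p = 0.018); on the deposited scale the rise was 0.48 and not called (adjusted p = 0.074). In between its means were 10.85, 10.52 and 10.59 at 10, 30 and 60 min, beside 10.57 at 0 min, and it was not called.

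In ischemia+reperfusion Cdkn1a was already higher at 60 min. Its levels were 10.99, 10.97, 10.88 and 10.80 at 0 min, 11.43, 11.47, 11.46 and 11.51 at 60 min, and 11.53, 11.67, 10.95 and 11.58 at 120 min. The 60 min arrays lay close together and clear of the 0 min arrays, whereas array 2-1 at 120 min, the other of the pair out of place, fell among the 0 min values. The rise was 0.56 (SE 0.14, adjusted p = 0.049) at 60 min and 0.52 (SE 0.14, adjusted p = 0.0497) at 120 min. Both calls lay at the threshold, and each was kept in only 5 of 11 alternatives: without the block the adjusted p was 0.068 for each, each was lost on the deposited scale (0.52 and 0.36), and without the pair the 120 min rise was 0.68 (adjusted p = 0.0077). Leaving out array 1-2 at 0 min or array 1-1 at 60 min gave an adjusted p of 0.051 and 0.052 for the 60 min rise, and leaving out array 2-2 at 120 min moved the 120 min rise to 0.36 (adjusted p = 0.26). The 120 min call was kept in 4 of 8 fits that left out an array; the others lost it without arrays 1-2 or 2-1 at 0 min or 1-1 at 120 min (adjusted p = 0.051 to 0.054).

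The other Cdkn1a probe set differed from the brightest in ischemia and between the arms, and was called in no comparison. Probe set 1388674_at gave the values above, and 1387391_at gave -0.61 after 120 min of ischemia (adjusted p = 0.14), 0.57 and 0.40 after 60 and 120 min of ischemia+reperfusion (adjusted p = 0.23 and 0.39), and 0.02 between the arms at 60 min. With the probe sets averaged, the ischemia rise was 0.04 (adjusted p = 0.90). Which part of the transcript each probe set reads is not given in the sources used here.

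Cdk2, the kinase that pairs with cyclin E and cyclin A at the start of S phase, fell in both arms. In ischemia its levels were 9.36, 9.88, 9.98 and 9.78 at 0 min and 9.44, 9.25, 9.43 and 9.31 at 120 min. The groups overlapped only through array 1-1 at 0 min, the array that stood apart; the change was -0.39 (SE 0.10, adjusted p = 0.030), and -0.52 without that array. Without array 1-2 at 0 min it was -0.26 (adjusted p = 0.21), and without array 1-2 at 120 min -0.34 (adjusted p = 0.051). In ischemia+reperfusion the levels were 9.73, 9.63, 9.90 and 9.53 at 0 min and 9.21, 9.25, 9.37 and 9.22 at 120 min. These did not overlap, and Cdk2 fell by 0.43 (SE 0.10, adjusted p = 0.031), or by 0.34 (adjusted p = 0.089) without array 2-1 at 0 min. Its second probe set, 1378874_at, gave -0.36 and -0.39 in the 2 arms (adjusted p = 0.083 and 0.092).

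**Figure D2:**
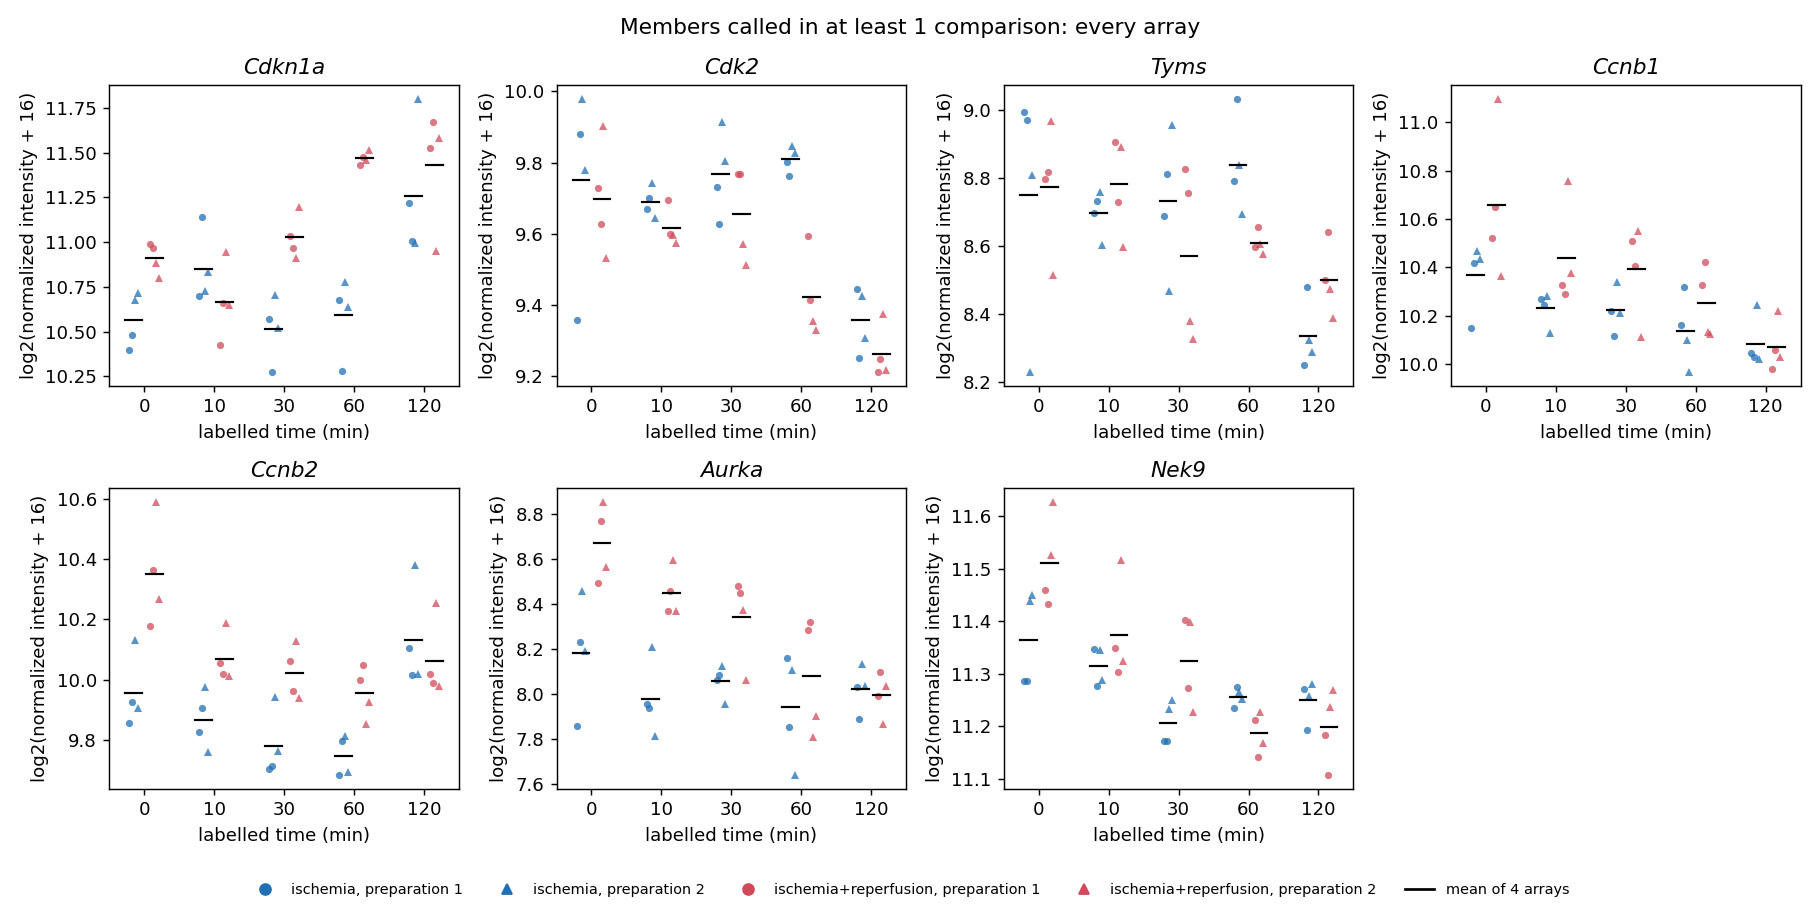
Log2 level of the 7 called members on every array against the labelled time in minutes, blue for ischemia and red for ischemia+reperfusion, circles for preparation 1 and triangles for preparation 2, with a bar at the mean of the 4 arrays of a group. Cdkn1a separates most between the arms at 60 min (11.47 against 10.59). At 0 min the red means of Ccnb1, Ccnb2 and Aurka lie above the blue ones, though the Ccnb1 points overlap.

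None of the other G1 genes was called on its brightest probe set in any comparison with 0 min. The D-type cyclins Ccnd1, Ccnd2 and Ccnd3, which sense growth signals, had group means of 10.36 to 10.69, 11.51 to 11.90 and 11.28 to 11.51. Those of Cdk4, their partner, ran from 11.59 to 11.77. Ccne1 (cyclin E) ran from 8.85 to 9.24, E2f1 from 9.40 to 9.80, and Cdkn2c, an inhibitor of Cdk4 and Cdk6, from 9.78 to 10.11. The 10 tested G1 genes had median changes of 0.09, 0.01 and -0.02 after 120 min of ischemia and 60 and 120 min of ischemia+reperfusion.

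Cdkn1b, the inhibitor that keeps resting cells in G1, showed how a single array can decide a value. On its brighter probe set, 1373812_at, ischemia 0 min had 8.06 on array 1-1 and 10.95, 11.32 and 11.07 on the others, and the means of the other 9 groups were 11.00 to 11.27. The differences from 0 min in ischemia of 0.78, 0.70, 0.65 and 0.75 at 10 to 120 min were not called, and without array 1-1 they were 0.06, -0.02, -0.07 and 0.03. On probe set 1369192_at the same array was instead the high one, at 10.90, where the others were at 8.08, 8.10 and 8.20. This probe set was called lower at 10 min (-1.40, adjusted p = 0.047) and 120 min (-1.49, adjusted p = 0.014), with arrays at 7.47, 7.28, 7.51 and 7.40 at 10 min and 7.36, 7.24, 7.49 and 7.22 at 120 min. Without array 1-1 these changes were -0.70 (adjusted p = 0.022) and -0.79 (adjusted p = 0.0028), smaller but still called, and ischemia+reperfusion then differed from ischemia at 0 min by -0.62 (adjusted p = 0.033).

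**Figure D3:**
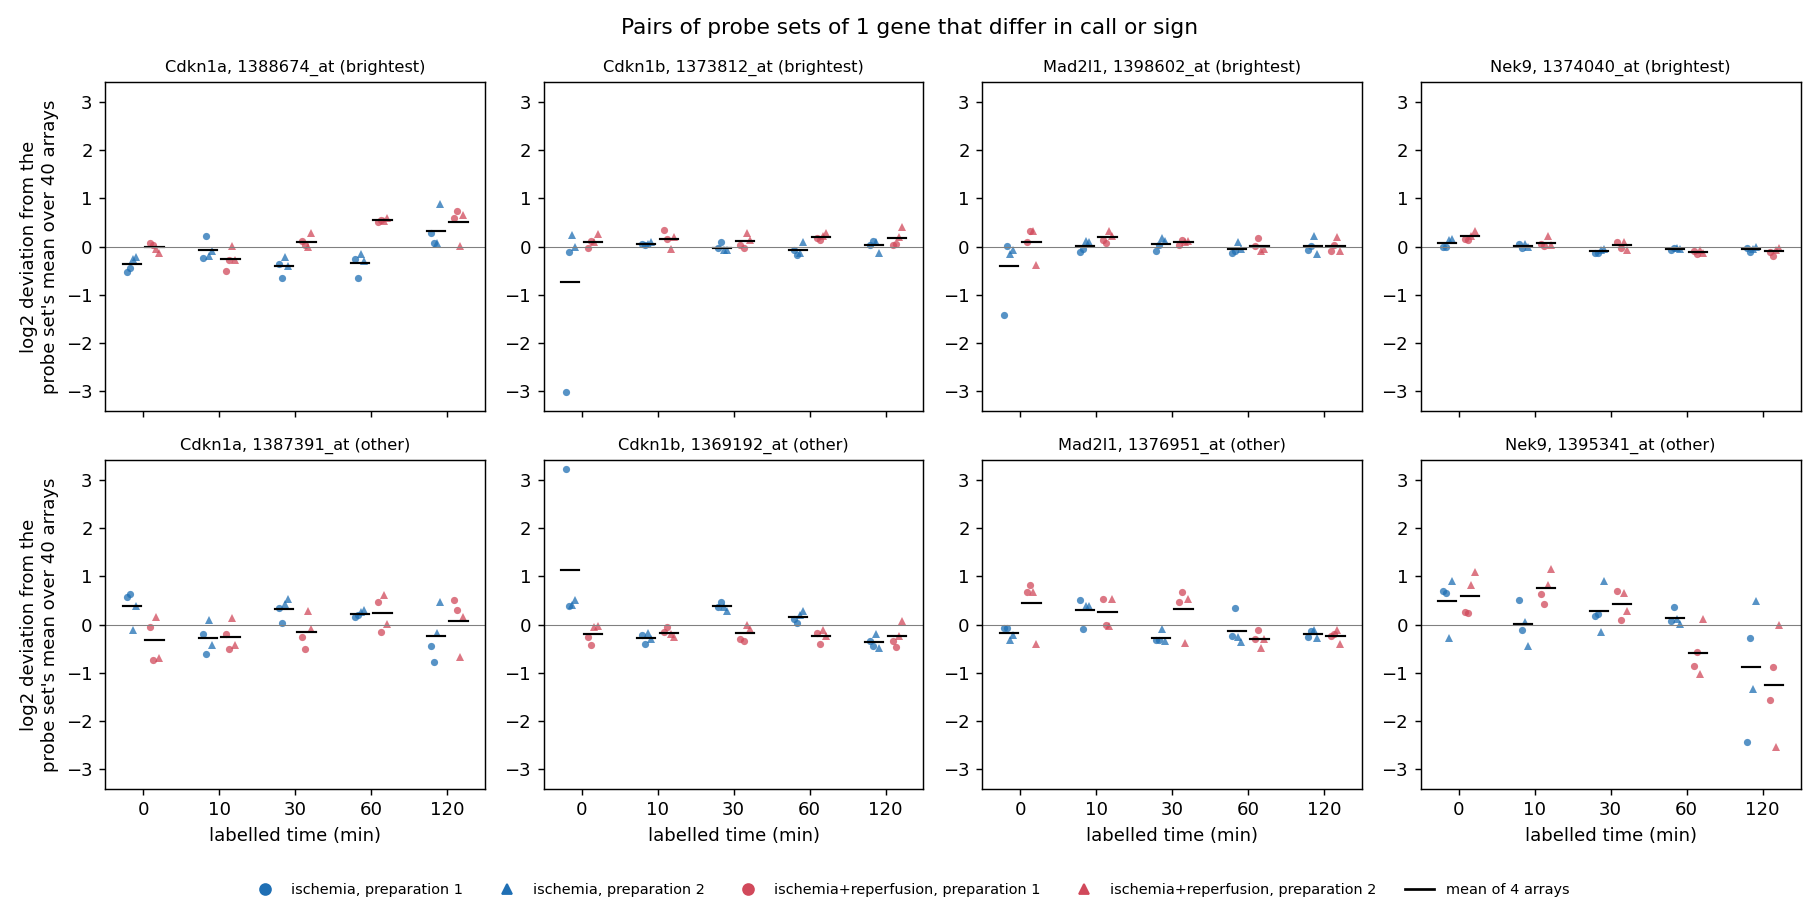
Deviation of every array from the probe set's own mean (log2) against the labelled time in minutes, for Cdkn1a, Cdkn1b, Mad2l1 and Nek9, with the brightest probe set of each gene above and another probe set below; colours and symbols mark arm and preparation. On the pair of Cdkn1b probe sets the same array of ischemia 0 min lies far from the rest, low on the one (8.06) and high on the other (10.90).

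Of the 9 tested DNA replication members, 1 was called, Tyms, the enzyme that makes thymidylate for DNA. Its ischemia levels were 8.99, 8.97, 8.23 and 8.81 at 0 min and 8.25, 8.48, 8.33 and 8.29 at 120 min. Array 2-1 at 0 min lay below the whole 120 min group, so the groups overlapped, and the other 0 min arrays lay above it. Tyms fell by 0.41 (SE 0.11, adjusted p = 0.036). The call was not kept without the preparation block (adjusted p = 0.097), without array 2-2 at 0 min (-0.27, adjusted p = 0.26) or without array 1-1 at 120 min (-0.36, adjusted p = 0.056). In ischemia+reperfusion Tyms went from a mean of 8.77 to 8.50 at 120 min, a difference of -0.27 that was not called (adjusted p = 0.17).

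The replicative helicase is a ring of the MCM proteins, and Pcna is the clamp that holds the polymerase on DNA. After 120 min of ischemia+reperfusion the difference from 0 min was -0.11 for Pcna (95% interval -0.30 to 0.07), -0.21 for Mcm2 (-0.52 to 0.09) and -0.10 for Mcm3 (-0.51 to 0.32). It was -0.05 for Mcm4 (-0.31 to 0.22), -0.03 for Mcm5 (-0.41 to 0.35) and -0.21 for Mcm6 (-0.56 to 0.13). Mcm7 was at -0.21 (-0.53 to 0.12), and Rrm1, the large subunit of ribonucleotide reductase, which makes deoxynucleotides, at -0.11 (-0.30 to 0.07). All 9 tested genes were below 0 after 120 min in both arms, with a median of -0.11 in each, and none but Tyms in ischemia was called. The lower bounds of these intervals lay between -0.56 and -0.30, so falls up to those sizes lie within the error of these values. The group means of Pcna ran only from 12.40 to 12.51.

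The genes of G2 and mitosis lay lower at 60 and 120 min of ischemia+reperfusion than at its own 0 min. Of the 16 tested members 3 fell at 60 min (18.8%, where 2.5% of all probe sets were called lower) and 4 at 120 min (25%, where 3.68% were), none rose, and the medians were -0.26 and -0.30, with 16 and 15 of the 16 below 0. Over all probe sets the medians at these times were -0.01 and -0.02, with 51.8% and 54.3% below 0. At 10 and 30 min the medians of the 16 were -0.13 and -0.18, with 0 called and 2 and 5 at an unadjusted p under 0.05. In ischemia the medians were -0.08, -0.12, -0.11 and -0.02 at 10 to 120 min, with 0 called at each time and 1, 3, 2 and 3 at an unadjusted p under 0.05. Of all probe sets 22%, 15.6%, 15.8% and 31.8% had an unadjusted p under 0.05 at these times of ischemia. At 10 and 30 min of ischemia+reperfusion 11.3% and 14.8% did.

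Cyclins B1 and B2 activate Cdk1 for entry into mitosis. Ccnb1 in ischemia+reperfusion was at 10.52, 10.65, 11.10 and 10.36 at 0 min, 10.33, 10.42, 10.13 and 10.13 at 60 min, and 9.98, 10.06, 10.22 and 10.03 at 120 min. All 120 min arrays were below all 0 min arrays. Ccnb1 fell by 0.59 at 120 min (SE 0.12, adjusted p = 0.019), or by 0.40 (adjusted p = 0.084) without the high array 2-1 at 0 min, and the 60 min difference of -0.41 was not called (adjusted p = 0.072). In ischemia Ccnb1 went from a mean of 10.37 to 10.09, which was not called. Its other probe set, 1370345_at, gave -0.25 at 120 min of ischemia+reperfusion (adjusted p = 0.30).

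Ccnb2 in ischemia+reperfusion was at 10.18, 10.36, 10.59 and 10.27 at 0 min and at 10.00, 10.05, 9.85 and 9.93 at 60 min, with no overlap. It was at 10.02, 9.99, 10.25 and 9.98 at 120 min, where array 2-1 reached into the 0 min range. Ccnb2 fell by 0.39 at 60 min (SE 0.07, adjusted p = 0.018) and by 0.29 at 120 min (SE 0.07, adjusted p = 0.040). The 120 min call was not kept without the preparation block (adjusted p = 0.079) or without array 1-2 or 2-1 at 0 min or 2-2 at 120 min (adjusted p = 0.095, 0.12 and 0.13). In ischemia Ccnb2 had means of 9.95, 9.87, 9.78, 9.75 and 10.13 at 0, 10, 30, 60 and 120 min, lowest at 60 min and highest at 120 min, with no single time called against 0 min.

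Aurka encodes the Aurora kinase of the spindle poles. In ischemia+reperfusion it was at 8.49, 8.77, 8.85 and 8.56 at 0 min, 8.28, 8.32, 7.81 and 7.90 at 60 min, and 7.99, 8.10, 7.87 and 8.04 at 120 min. Both later groups lay wholly below the 0 min group. Aurka fell by 0.59 at 60 min (SE 0.14, adjusted p = 0.037) and by 0.67 at 120 min (SE 0.14, adjusted p = 0.020). The 120 min call was kept in all 11 alternatives and in all 8 fits that left out an array, while at 60 min leaving out array 1-2 or 2-1 at 0 min gave -0.52 each (adjusted p = 0.063 and 0.054). The ischemia means, 8.18 at 0 min and 8.02 at 120 min, lay below the ischemia+reperfusion mean of 8.67 at 0 min and near its mean of 8.08 at 60 min.

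Nek9 encodes a kinase that acts upstream of other NEK kinases in spindle assembly. Its ischemia+reperfusion levels were 11.46, 11.43, 11.53 and 11.63 at 0 min, 11.21, 11.14, 11.23 and 11.17 at 60 min, and 11.18, 11.11, 11.24 and 11.27 at 120 min. The later arrays all lay below the 0 min arrays. Nek9 fell by 0.32 at 60 min (SE 0.06, adjusted p = 0.017) and by 0.31 at 120 min (SE 0.06, adjusted p = 0.016). A dimmer probe set of Nek9, 1395341_at, was also called lower at both times (adjusted p = 0.038 and 0.0081) and after 120 min of ischemia (adjusted p = 0.013), where the brightest was not. Its later group means of 6.39, 5.73 and 6.09 lay under the filter at 6.48, against 7.58 and 7.47 at 0 min of the arms, so no size of change is given for it. At 120 min its arrays spread from 4.44 to 6.97 in ischemia+reperfusion and from 4.55 to 7.48 in ischemia, where they overlapped those at 0 min. Probe sets 1376454_at and 1375271_at gave -0.47 and -0.56 at 120 min of ischemia+reperfusion (adjusted p = 0.076 and 0.075), neither called.

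Several other mitotic genes were also lower without being called. Bub1b, a spindle-checkpoint kinase, was at 8.92, 8.50, 9.06 and 8.39 at ischemia+reperfusion 0 min, at 8.38, 8.33, 7.01 and 7.83 at 60 min and at 7.71, 7.75, 8.66 and 7.56 at 120 min. The difference was -0.83 (SE 0.25, adjusted p = 0.081) at 60 min and -0.80 (adjusted p = 0.079) at 120 min, and -1.07 with a call once the pair of 120 min arrays was left out. Birc5 (survivin), of the chromosomal passenger complex, was at 9.54, 9.39, 9.73 and 9.07 at 0 min and 9.26, 8.94, 8.65 and 8.50 at 120 min, a difference of -0.60 (adjusted p = 0.076). At 120 min Plk1, the main mitotic polo-like kinase, was at -0.35 (adjusted p = 0.069), Ccna2 (cyclin A) at -0.39 (adjusted p = 0.12) and Cdk1, the partner of the B cyclins, at -0.28 (adjusted p = 0.11). Plk1 was also called without the pair, at -0.40, which made 8 members called at 120 min in place of 6.

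The remaining mitotic members were not called on their brightest probe sets. The ranges of group means were 9.70 to 10.00 for the proliferation marker Mki67, 10.40 to 10.59 for the topoisomerase Top2a, and 9.53 to 9.80 for Cdc20, which activates the anaphase-promoting complex. Cdc20 is given on the brightest of its 5 probe sets, and no other was called. The passenger kinase Aurkb ran from 9.36 to 9.56, the phosphatase Cdc25b, which switches on Cdk1, from 8.75 to 8.96, and the checkpoint kinase Bub1 from 9.34 to 9.70. Mad2l1, the checkpoint protein that holds back Cdc20, was on its brightest probe set 1398602_at at 8.15 on array 1-1 of ischemia 0 min and at 9.41 to 9.57 on the others of that group, and was not called. Its probe set 1376951_at was called lower after 60 min (-0.74, SE 0.17, adjusted p = 0.035) and 120 min of ischemia+reperfusion (-0.68, adjusted p = 0.038). The arrays of that probe set were at 9.31, 9.46, 9.32 and 8.24 at 0 min, at 8.35, 8.52, 8.15 and 8.35 at 60 min, and at 8.41, 8.44, 8.54 and 8.24 at 120 min. They overlapped only through array 2-2 at 0 min.

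**Figure D4:**
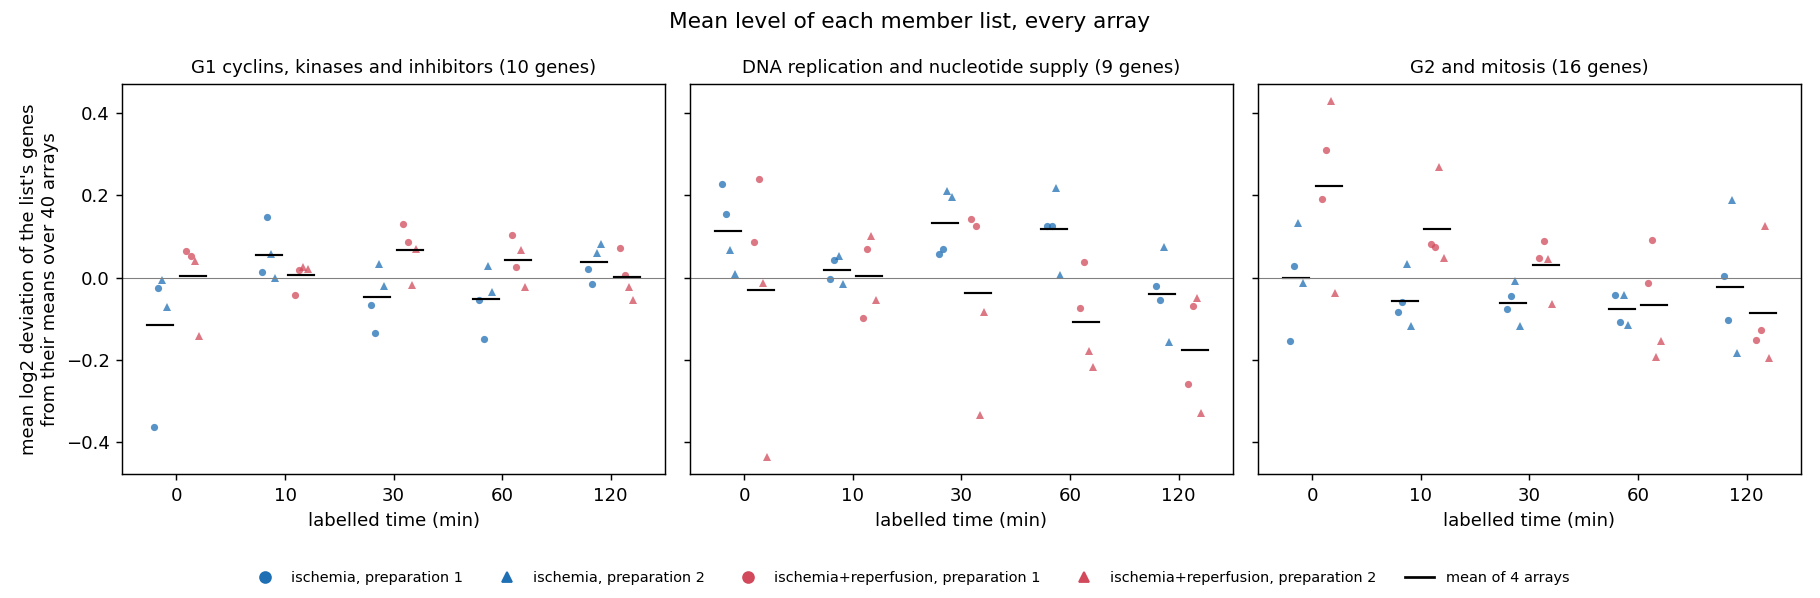
Mean log2 deviation from each gene's own overall mean, per array, for the 10 G1, 9 DNA replication and 16 G2 and mitosis members, by arm and labelled time. The G2 and mitosis genes average 0.22 at ischemia+reperfusion 0 min and -0.09 at 120 min, where the means of the ischemia groups lie between -0.08 and 0.00. Single arrays overlap: array 2-2 at ischemia+reperfusion 0 min is at -0.04, and array 2-1 at its 120 min is at 0.13.

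The mitotic genes tended to start higher in ischemia+reperfusion than in ischemia, with none called in the fit of all arrays. Their mean deviation overlapped between the arms at 0 min. Array 2-2 of ischemia+reperfusion was at -0.04, and the ischemia arrays were at -0.15 to 0.13. At 0 min 14 of the 16 were higher in ischemia+reperfusion than in ischemia, with a median of 0.21, and 0 of the 36 members were called (12 at an unadjusted p under 0.05; background 0.333% called and 18.2% unadjusted). Ccnb2 was nearest, at 0.40 with no overlap of the arrays (adjusted p = 0.050), and without the outlying array it was called at 0.38. Aurka stood at 0.49 (adjusted p = 0.13), Birc5 at 0.55 (adjusted p = 0.17) and Mad2l1 at 0.49 (adjusted p = 0.14), which was 0.14 (adjusted p = 0.56) without the outlying array. The median of the 16 was 0.14 without that array. At 120 min the median of the 16 between the arms was -0.03. The test of whether the change at 120 min differed between the arms called 0 members (8 at an unadjusted p under 0.05; background 0%, with 10.4% unadjusted), with -0.47 for Ccnb2 (adjusted p = 0.21), -0.70 for Birc5 (adjusted p = 0.41) and -0.51 for Aurka (adjusted p = 0.42). The mitotic falls were therefore not shown to differ from the changes in ischemia. The same test at 10, 30 and 60 min, added after the values were seen, called 0 members (1, 0 and 3 unadjusted; background 0%, 0% and 0%, with 12.3%, 5.76% and 10.7% unadjusted).

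Between the arms at equal labelled time, Cdkn1a alone was called, at 60 min. Its levels there were 11.43, 11.47, 11.46 and 11.51 in ischemia+reperfusion and 10.68, 10.28, 10.78 and 10.64 in ischemia, with no overlap. The difference was 0.88 (SE 0.14, adjusted p = 0.012), in 1 of 36 members (2.78%), where 5.38% of all probe sets were called (3.14% higher, 2.24% lower). It was kept in all 8 fits that left out an array, but with the probe sets of a gene averaged it was 0.45 (adjusted p = 0.13). At 0 min Cdkn1a was already higher in ischemia+reperfusion by 0.34, on arrays that did not overlap, and was not called (adjusted p = 0.24). The test of whether the Cdkn1a change at 60 min differed between the arms gave 0.53 and no call (adjusted p = 0.41). Cdk2 was lower by 0.39 on arrays that did not overlap, just past the threshold (adjusted p = 0.051). All 9 replication genes were lower in ischemia+reperfusion at 60 min, with a median of -0.23 and 0 called (2 at an unadjusted p under 0.05). The gap was not particular to 60 min. At 0 min Mcm3, Mcm4, Mcm5, Mcm6 and Mcm7 were already at -0.29, -0.23, -0.31, -0.34 and -0.18, and Rrm1 at -0.06. Pcna, Mcm2 and Tyms were then at 0.06, 0.01 and 0.02. At 10, 30 and 120 min 0 members were called (3, 5 and 1 unadjusted), beside a called background of 0%, 0.532% and 0% and an unadjusted one of 9.99%, 15.6% and 7.16%. Without the pair of 120 min arrays, Cdkn1a was also called at 120 min (0.54, adjusted p = 0.030).

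Plk2, a polo-like kinase induced by stress and by growth signals, had lower means in ischemia+reperfusion than in ischemia from 0 to 60 min, and was not called. In ischemia its means were 11.78, 11.63, 11.81, 11.87 and 11.46 at 0 to 120 min, and in ischemia+reperfusion 11.10, 11.10, 10.91, 11.18 and 11.69. At ischemia+reperfusion 0 min the arrays were at 11.50, 11.66, 11.08 and 10.16, so the duplicates of preparation 2 were far apart. At 30 min ischemia+reperfusion was at 11.05, 11.14, 10.49 and 10.96, and ischemia at 11.56 to 12.13, with no overlap; the difference was -0.90 (SE 0.23, adjusted p = 0.099). The promoter of Plk2 holds TGACGTCA at -66.

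Other genes of these pathways were taken from fixed lists. Of 59 further genes of G2, mitosis and the anaphase-promoting complex tested, 9 fell and 0 rose after 60 min of ischemia+reperfusion (15.3%, where 2.5% of all probe sets were called lower; median -0.18), and 8 fell and 0 rose after 120 min (13.6%, where 3.68% were called lower; median -0.19), with 50 and 49 below 0. The largest falls at 120 min were in Kif20a, a motor protein of cytokinesis (-0.73, adjusted p = 0.046), Hmmr, a spindle-assembly protein (-0.51, adjusted p = 0.0093), and Racgap1, which regulates the cleavage furrow (-0.50, adjusted p = 0.013). For each of these genes the 120 min arrays overlapped those at 0 min. The mean deviation of the 59 genes overlapped too, at -0.044 on array 2-2 at 0 min and 0.105 on array 2-1 at 120 min. After 120 min of ischemia 1 of the 59 fell, a share under the 6.48% of all probe sets called lower. This was Cdc27, a subunit of the anaphase-promoting complex (-0.54, adjusted p = 0.016). Between the arms at 0 min 0 of the 59 were called (18 at an unadjusted p under 0.05), with a median of 0.15.

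Of 28 further genes of G1 control and arrest, 4 rose and 0 fell after 120 min of ischemia, or 14.3% called. Of all probe sets 12.9% were called, 6.45% higher and 6.48% lower. The share called thus lay near the background in total and above it for rises, and no test was made of either. The 3 largest rises were Ccng2, an atypical cyclin linked to arrest (1.28, SE 0.26, adjusted p = 0.014), Gadd45b, a stress-response gene (0.83, adjusted p = 0.033), and Cdkn1c, a relative of Cdkn1a (0.53, adjusted p = 0.035). After 120 min of ischemia+reperfusion Gadd45b (1.08, adjusted p = 0.021) and Gadd45g (0.66, adjusted p = 0.021) rose, and Cdkn2d, an inhibitor of Cdk4 and Cdk6, fell (-0.51, adjusted p = 0.025), or 10.7% called beside a background of 7.17%. Of 35 further replication genes 1 (2.86%, under the background of 7.17%) was called after 120 min of ischemia+reperfusion, Orc1, which marks replication origins (-0.77, adjusted p = 0.020), and 0 after 120 min of ischemia (0 also at an unadjusted p under 0.05), with medians of -0.01 and -0.11.

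A few cell type markers were called in the same comparisons. At 60 and 120 min of ischemia+reperfusion, beside the mitotic falls, 1 of 10 fibroblast markers fell (Tcf21, -0.82 and -0.61) and 1 of 11 macrophage and leukocyte markers fell (Mrc1, -0.75 and -0.69), and at 120 min 1 of 11 cardiomyocyte markers rose (Myh7, 0.32, adjusted p = 0.036). Of all probe sets 2.5% and 3.68% were called lower at these times, and 3.5% higher at 120 min. A single call in so short a list says little about a cell type. The summed fibroblast intensity was 44603 to 54083 at 0 min, 44815 to 49116 at 60 min and 48256 to 53106 at 120 min, and the macrophage sum 4654 to 5945, 4564 to 5607 and 4601 to 6950, so the groups overlapped. After 120 min of ischemia, beside the Cdkn1a, Cdk2 and Tyms calls, 4 of 6 endothelial markers rose, Pecam1 by 1.04. Of all probe sets 6.45% were called higher there. Of the 4 endothelial markers only Esam had arrays that did not overlap those at 0 min. The sum of the 7 endothelial markers on the array, Vwf included, was 1872 to 2438 at 0 min and 2448 to 3301 at 120 min, with no overlap. In the same comparison 1 of 10 fibroblast markers rose (Pdgfra, 0.45, adjusted p = 0.039), and the fibroblast sum, 42686 to 48292 at 0 min and 49167 to 51439 at 120 min, did not overlap either. Vwf was under the filter, and the part of these cell types in the results was not tested. Between the preparations 0 members were called (7 at an unadjusted p under 0.05; background 11.1% called and 26.9% unadjusted), while 5 of 10 fibroblast, 4 of 6 endothelial, 7 of 11 macrophage and leukocyte and 1 of 11 cardiomyocyte markers (Myl7, -0.48) were lower in preparation 2, and 1 macrophage and leukocyte marker was higher (Aif1, 0.49).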

How the data were processed

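The authors deposited one table of probe set intensity values for 40 arrays, on a linear scale with 15.8% of values negative and array medians from 101 to 171. Which software and scaling made these intensities is not given in the sources used here. Of 31042 probe sets, 20826 carried 1 gene symbol in the platform annotation. The deposited intensities were quantile-normalized, floored at 0 and taken as log2(value + 16). Probe sets with a mean above the 40th percentile (6.48) were tested, which left 18625. Averaging the duplicates left 20 values. All 10 groups were fitted in limma 3.58.1 (lmFit and eBayes, R 4.3.3) with preparation as a block, since the labels mark it. The fit had 9 residual and 2.27 prior degrees of freedom. Moderated two-sided tests were adjusted by Benjamini-Hochberg within each comparison, with a threshold of 0.05. Same-preparation averages deviated together only in part (median correlation 0.18, from -0.18 to 0.53, over 45 pairs of groups). The number of arrays limits precision: a typical 95% interval at 120 min extended 0.26 on each side.

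Members were given by name. Each was named on its brightest probe set, and other probe sets where their call or sign differed. Pathway genes were named as the 3 largest called rises and falls at 120 min. The members, the lists and the naming rule were chosen with earlier results of these data known. Promoters came from RefSeq (GRCr8) and had no test. The code was tested on simulated data. Alternatives covered scaling, pseudocount, filter, block, duplicates, probe set choice and single arrays.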

Additional observations from a re-analysis of the deposited data

Results flagged for a closer look

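Among 70 groups of 4 arrays checked for the called members, 3 held an array far from the other 3 by Dixon's test, which chance gives in about 1 of 20 groups. Ccnb1 at ischemia 0 min was 10.15 on array 1-1, where the others were at 10.42 to 10.47; this is the array that stood apart over all probe sets. Ccnb1 at ischemia 120 min was 10.24 on array 2-1, where the others were at 10.02 to 10.05. Ccnb2 at ischemia+reperfusion 120 min was 10.25 on array 2-1, where the others were at 9.98 to 10.02; this array is one of the pair whose Hspa1a level went against its label.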

How the results depend on the processing

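No called member value changed sign under any alternative: 129 of 154 alternative values and 95 of 112 values with an array left out kept the call. On the deposited scale, which shifts the median of all probe sets by -0.23 to 0.21, 5 members were called after 120 min of ischemia (all lower), 0 and 3 after 60 and 120 min of ischemia+reperfusion (all lower), 2 between the arms at 60 min, 2 between preparations and 0 and 0 in the F tests of ischemia and ischemia+reperfusion. With each array centred on its median, 10 were called after 120 min of ischemia+reperfusion (all lower), 3 between the arms at 60 min, and 1 and 6 in the F tests. In that setting the median change of all probe sets after 120 min of ischemia+reperfusion was -0.09. With 40 arrays and an estimated duplicate correlation of 0.0781, 2, 7 and 10 were called after 30, 60 and 120 min of ischemia+reperfusion, 3, 1 and 4 between the arms at 0, 30 and 60 min, 1 between preparations, and 4 and 8 in the F tests. A pseudocount of 64 gave 1 and 2 between the arms at 0 and 60 min. Without the filter 1 was called between the arms at 0 min and 1 and 1 in the F tests. A filter at the 60th percentile gave 1 after 30 min of ischemia+reperfusion, 1 and 2 between the arms at 0 and 60 min, and 4 in the F test of ischemia+reperfusion. Averaging the probe sets of a gene gave 1 after 30 min of ischemia+reperfusion, 1 and 0 between the arms at 0 and 60 min, and 1 in the F test of ischemia. Without the outlying array 1 and 2 were called between the arms at 0 and 60 min and 5 in the F test of ischemia+reperfusion, and without the pair of 120 min arrays 1 between the arms at 120 min. The fit with no replicate block, which ignores the pairing by preparation, gave 0 and 1 in the F tests, and its other lost calls stand beside the genes. With an array left out, counts ran from 0 to 1, 2 to 8 and 2 to 12 after 30, 60 and 120 min of ischemia+reperfusion, from 2 to 4 after 120 min of ischemia, from 0 to 3 and 1 to 2 between the arms at 0 and 60 min, from 0 to 1 between preparations, and from 0 to 3 and 0 to 4 in the F tests. The lows after 60 and 120 min of ischemia+reperfusion came without arrays 1-2 and 2-1 of its 0 min group, the highs (8 and 12) without its array 2-2. The causes were not tested.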
